A study of Oryza sativa Japonica Group with 41 samples.

Results

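The short arms of rice chromosomes 4 and 10 are known from cytology as largely heterochromatic arms, rich in transposable elements and poor in genes. The regions described here are the 881 acylated regions of these arms, out of 38058 in the rice genome. They were chosen by position alone. The peaks of the 18 seedling ChIP libraries were merged wherever they overlapped by at least 1 bp, and a merged region was taken when its midpoint lay between 1 and 7.7 Mb of chromosome 4 (438 regions) or between 1 and 6.2 Mb of chromosome 10 (443 regions) of the MSU7.0 assembly. They were set against the 4121 regions of the long arms of the same chromosomes, beyond 11.7 Mb of chromosome 4 and beyond 10.2 Mb of chromosome 10.

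Heterochromatin is compact chromatin in which transcription is mostly silent, and in plants it carries H3K9me2 and dense DNA methylation. Histone acetylation opens chromatin, and acetylated lysine 9 of histone H3 (H3K9ac) marks the 5′ ends of active genes. Butyrylation (Kbu) and crotonylation (Kcr) are related acylations of histone lysines, made from the matching acyl-CoA and found at active promoters. In a heterochromatic arm such marks are therefore of interest as islands of open chromatin. None of the lists used here measured a heterochromatin mark, so the label of these arms was not checked against one, only against how densely the active marks were called.

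The peak lists came from leaves of the japonica cultivar DongJin, with no transgene or mutation in any group. Chromatin of 12-day-old seedlings was precipitated with antibodies against H3K9ac, Kbu or Kcr after 48 h of darkness (starvation), after 6 h of submergence or without treatment (control), with 2 libraries for each mark and condition. A second set held 8 H3K9ac libraries of 30-day-old leaves, 2 each at ZT0, ZT6, ZT12 and ZT18 (hours after lights on), and 1 library of seedling input chromatin had no antibody. The Kbu and Kcr antibodies recognise the modified lysine in any protein and at any position, and leaves hold many cell types. Gene positions of this assembly were not used, so regions are given by coordinates and the tissue was not checked against marker genes.

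MACS used between 5631625 and 19269402 tags (aligned reads, at most 1 per position) in a seedling library, between 5914314 and 16232431 in a leaf library and 8895601 in the input. It called between 21562 and 33265 peaks in a seedling library, between 21585 and 24441 in a leaf library and 652 in the input. Nothing in the labels says that replicates came from separate cultures, so the tests below measure the spread between libraries, which may be technical. Input peaks were denser in the short arms, at 3.19 per Mb against 1.28 per Mb in the long arms, and overlapped 11 of the 881 short-arm regions (1.25%) and 13 of the 4121 long-arm regions (0.315%).

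The short arms held fewer marked regions than the long arms, and the regions lay farther apart. There were 74.0 regions per Mb in the short arms, 65.4 on chromosome 4 and 85.2 on chromosome 10. The long arms held 112 per Mb, 113 on chromosome 4 and 111 on chromosome 10, and the 10 other chromosomes held 103 per Mb. The median gap between neighbouring regions was 7504 bp in the short arms and 4486 bp in the long arms, and regions covered 12.6% of the short arms and 22.6% of the long arms. This merged set is a single count with no replicates.

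Within the short arms the regions were unevenly spread. The 6 full Mb of chromosome 4 held between 45 and 79 regions and the 5 full Mb of chromosome 10 between 76 and 102, and these ranges met only between 76 and 79. The limits of the arms did not coincide with a step in density. The last 0.5 Mb inside the limit held 33 regions on chromosome 4 and 36 on chromosome 10, and the next 0.5 Mb outside held 35 and 33. At the other limit the first 0.5 Mb inside held 37 and 43 regions, and the 0.5 Mb before it held 45 and 40. The 4 Mb between the arms, which hold the centromeres, had 48.5 regions per Mb on chromosome 4 and 62.5 on chromosome 10.

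The low density was not found in the short arms alone. A stretch of each long arm of the same length as the short arm and nearest to the centromere, chosen after the values were seen, held 885 regions in all. That is 74.4 regions per Mb, 62.1 on chromosome 4 and 90.2 on chromosome 10, against the 74.0 of the short arms. Its median gap was 6856 bp, and its regions covered 13.0% of it. These proximal long arms are given below beside the whole long arms.

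Peaks of every mark were sparser in the short arms than in the long arms of every library. For H3K9ac the short arms held between 34.5 and 38.4 peaks per Mb over the 6 seedling libraries, with a median of 36.5, against 63.0 to 68.5 in the long arms, with a median of 65.4. For Kbu the short arms held 45.5 to 59.3 (median 52.7), against 82.8 to 97.0 in the long arms (median 89.3). For Kcr the short arms held 50.9 to 62.6 (median 55.6), against 86.1 to 96.9 in the long arms (median 91.8). No short-arm value reached the lowest long-arm value of its mark.

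The density of the short arms divided by that of the long arms came to 0.558 ± 0.0101 with H3K9ac, 0.583 ± 0.028 with Kbu and 0.613 ± 0.0306 with Kcr (SD, 6 libraries each, lower than 1 in 6 of 6). For H3K9ac in leaves it was 0.534 ± 0.0107 (SD over 8 libraries, lower in 8 of 8). Each ratio differed from 1 in an exact two-sided sign-flip permutation test over libraries, with an adjusted p of 0.0333 for the seedling marks and 0.0313 for leaves (Benjamini-Hochberg over 16 tests). The smallest raw p that 6 libraries allow is 0.0313, and 8 libraries allow 0.00781. The ratio was lower on chromosome 4, with a mean ratio of 0.470 for H3K9ac, 0.497 for Kbu and 0.525 for Kcr. On chromosome 10 the H3K9ac ratio was 0.673 and the Kcr ratio 0.731, with Kbu between them.

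**Figure D1:**
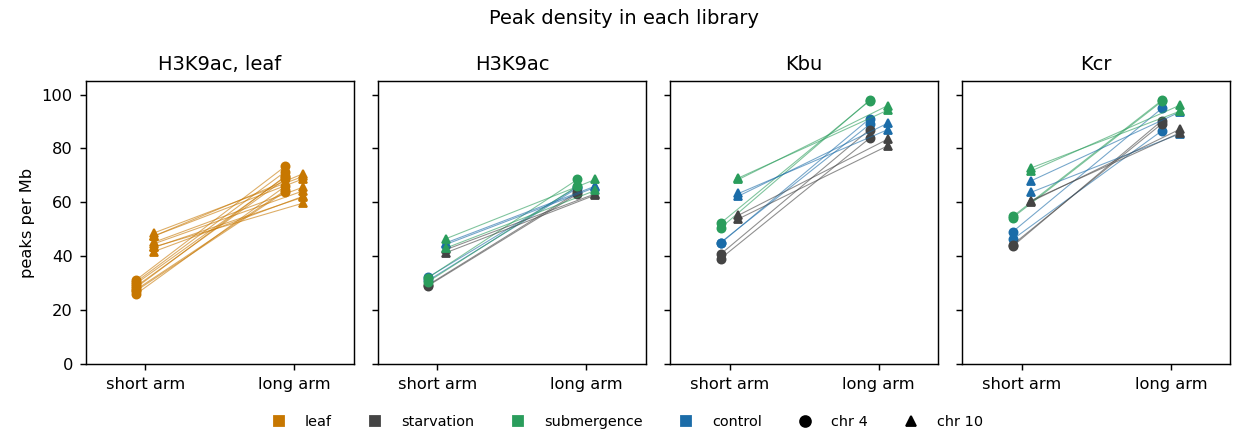
Peaks per Mb in the short arm and the long arm of chromosomes 4 (circles) and 10 (triangles), with 1 line for each library and chromosome, for leaf H3K9ac and for H3K9ac, Kbu and Kcr of seedlings. Every line climbs from the short arm to the long arm, and the circles of the short arms lie below the triangles.

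Against the whole long arms the density ratios of the marks were not the same. Among seedling libraries of the same condition and replicate number, the density ratio of H3K9ac was below that of Kcr by a log2 difference of −0.13 ± 0.07 and that of Kbu was below that of Kcr by −0.07 ± 0.02 (SD over 6 pairs). Both differences had 1 sign in 6 of 6 pairs (exact sign-flip permutation test, adjusted p = 0.0469 over 3 tests). H3K9ac was below Kbu in 5 of 6 pairs, which did not pass (exact p = 0.0938). Replicate numbers were not shown to pair the samples. MACS used at most 11985500 tags in a seedling H3K9ac library and at least 13331766 in a Kbu or Kcr library. Whether depth bears on these differences was not tested. Against the proximal long arms, given next, H3K9ac had the highest mean ratio of the 3 marks.

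Against the proximal long arms no density ratio of seedlings passed the test. It came to 1.02 ± 0.0237 with H3K9ac, 0.972 ± 0.0234 with Kbu and 0.994 ± 0.0201 with Kcr (SD over 6 libraries each), with adjusted p of 0.269, 0.125 and 0.607 in the exact permutation test. The 2 chromosomes went opposite ways for H3K9ac, with a mean of 1.09 on chromosome 4 (above 1 in 6 of 6 libraries) and 0.958 on chromosome 10 (below 1 in 6 of 6). Kbu had means of 1.04 and 0.914 and Kcr of 1.06 and 0.943 on chromosomes 4 and 10, with 0 of 6 libraries of each mark below 1 on chromosome 4 and 6 of 6 below 1 on chromosome 10. In leaves the short arms together were below the proximal long arms, at 0.944 ± 0.009 in 8 of 8 libraries (exact sign-flip permutation test, adjusted p = 0.0417). The leaf mean was 0.885 on chromosome 4 (below 1 in 8 of 8 libraries) and 0.999 on chromosome 10 (below 1 in 3 of 8).

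Individual peaks of the short arms were narrower, and MACS gave them a higher fold enrichment, which it computes relative to tags around the peak in that library. Median peak width in the short arms, as a ratio to the long arms, came to 0.914 with H3K9ac, 0.942 with Kbu, 0.936 with Kcr and 0.917 with leaf H3K9ac, lower than 1 in every library. The median H3K9ac peak of a seedling library was between 1105 and 1406 bp wide in the short arms, against 1212 to 1568 bp in the long arms. The same ratio of median fold enrichment came to 1.26 with H3K9ac, 1.13 with Kbu, 1.09 with Kcr and 1.26 with leaf H3K9ac, higher than 1 in every library. H3K9ac peaks had a median enrichment of 8.11 to 9.86 in the short arms of the seedling libraries, against 6.62 to 7.76 in the long arms, so these groups did not overlap. All these ratios passed the same permutation test (adjusted p of 0.0333, and 0.0313 in leaves).

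The number of tags per kb of peak went the other way and was less certain. The median peak of the short arms had 0.958 ± 0.0375 of the tags per kb of the long arms for H3K9ac, 0.887 ± 0.0271 for Kcr and 0.945 ± 0.0199 for leaf H3K9ac, lower in every library (exact permutation test, adjusted p of 0.0333, 0.0333 and 0.0313). For Kbu it was 0.923 ± 0.0566 and lower in 5 of 6 libraries (exact p = 0.0625). With the mean over peaks in place of the median the ratio was above 1 for H3K9ac (1.13), Kbu (1.03) and Kcr (1.003), and for H3K9ac it passed the test in that direction (exact permutation test, adjusted p = 0.0357). Against the proximal long arms the median gave 1.003 for H3K9ac, 1.02 for Kbu and 1.002 for Kcr, so the direction of this measure turned with both choices. On chromosome 4 the H3K9ac ratio was 1.01 and lower than 1 in 3 of 6 libraries.

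Between their 10th and 90th percentiles, tag counts of single regions were more widely spread in the short arms than in the long arms. Among regions called in both control libraries, H3K9ac tags ranged around a median of 172 in the short arms, with a 10th percentile of 74.7 and a 90th of 447. In the long arms the median was 204, with percentiles of 95.8 and 403. For Kbu the 90th percentile was 543 in the short arms and 520 in the long arms, although the median was 236 in the short arms and 278 in the long arms. For Kcr the 90th percentiles were nearly equal, at 435.3 and 433.5. The highest count of each mark was in the long arms, and this spread was not computed for the proximal long arms. Against the proximal long arms no ratio of width, fold enrichment or tags per kb passed the test in seedlings, and the 6 of 6 libraries with narrower (0.968) and more enriched (1.07) H3K9ac peaks had an adjusted p of 0.0714 in the exact permutation test. In leaves the short-arm peaks were narrower (0.961) and more enriched (1.05) than those of the proximal long arms in 8 of 8 libraries (exact permutation test, adjusted p = 0.0417 each).

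**Figure D2:**
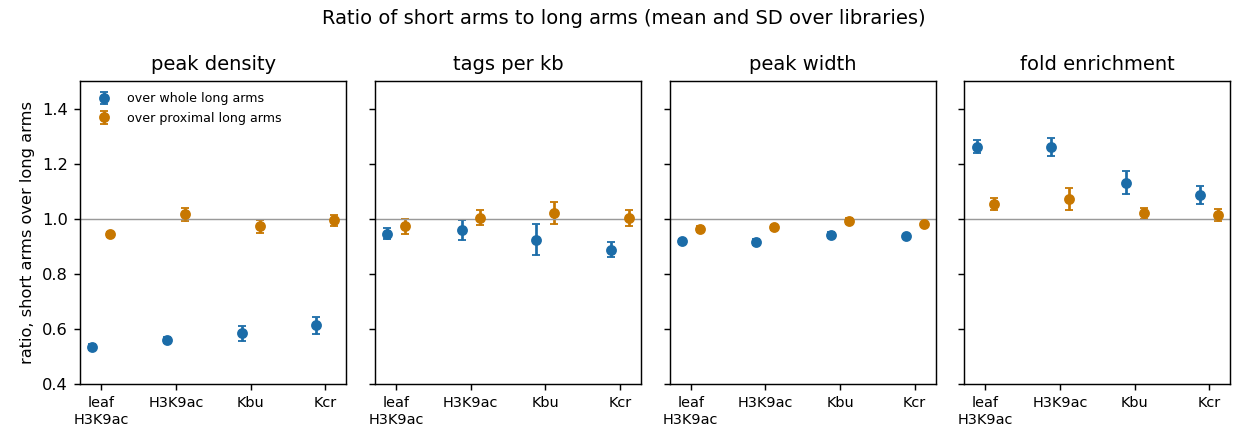
Ratio of short arms to whole long arms (blue) and to the proximal long arms of the same length (orange), as mean and SD over 8 leaf or 6 seedling libraries, for peak density, median tags per kb, median peak width and median fold enrichment. Density against the whole long arms lies near 0.534 to 0.613, and most of the orange points lie close to the line at 1.

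The strongest short-arm region had a mean of 838 H3K9ac tags over both control libraries, against 1757 for the strongest of the long arms. On chromosome 4 the region with most control H3K9ac, and the strongest of both arms, was Chr4:1148475-1153414, with 217 and 224 tags under starvation, 294 and 521 under submergence and 783 and 892 in control. Its H3K9ac peaks were 2036 and 2069 bp long under starvation, against 4818 and 4822 bp in control. Its Kbu tags were 430 and 491 under starvation, against 473 and 413 in control.

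On chromosome 10 the highest region was Chr10:5525681-5527457, with 488 and 563 H3K9ac tags under starvation, 615 and 751 under submergence and 784 and 815 in control. A second strong region, Chr10:5512829-5514750, lay nearby, with 496 and 551 tags under starvation, 600 and 742 under submergence and 710 and 759 in control. Both overlapped peaks of the input library, and the share of their tags that the input would give was not tested. The third, Chr10:2886465-2890853, overlapped no input peak and had 324 and 369 tags under starvation, 371 and 511 under submergence and 720 and 766 in control.

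The other strong regions of chromosome 4 were Chr4:6117094-6118875, with 712 and 826 control H3K9ac tags, and Chr4:5870646-5873342, with 692 and 739. These 6 strongest regions had a peak in all 18 seedling libraries and in all 8 leaf libraries. Tags are raw counts and follow the depth of a library, so they rank regions within a library.

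The widest regions varied between replicates. Chr4:1021479-1026593, 5115 bp wide, had a peak in 5 of 18 libraries and none for H3K9ac. It held 173 and 0 Kbu tags under starvation, 0 and 0 under submergence and 644 and 0 in control, so its 2 control libraries disagreed. Its Kcr tags were 246 and 0 under starvation, 0 and 0 under submergence and 102 and 588 in control. Chr10:1884215-1889271, 5057 bp wide, had a peak in 14 libraries, with 0 and 0 H3K9ac tags under starvation, 0 and 142 under submergence and 70 and 63 in control. Its Kcr tags were 0 and 254 under starvation, 503 and 374 under submergence and 121 and 267 in control.

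Most short-arm regions with a mark in control seedlings carried all 3, and most of the others carried Kbu and Kcr without H3K9ac. A mark was counted when both control libraries had a peak in the region. Of the 881 regions, 638 carried at least 1 mark by that rule. H3K9ac was in 428 of these (67.1%), and 410 had all 3 marks. A further 148 (23.2%) had Kbu and Kcr without H3K9ac, 35 had Kcr alone, 27 had Kbu alone and 12 had H3K9ac alone, 9 of them on chromosome 4.

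In the long arms 70.9% of 3227 marked regions had H3K9ac and 20.4% had Kbu and Kcr without it. Counted in single control libraries, H3K9ac was in 63.6% and 63.0% of marked short-arm regions, against 69.6% and 67.6% in the long arms. Counted in the same way, Kbu and Kcr without H3K9ac were in 23.9% and 23.7% of marked short-arm regions, against 19.7% and 23.2% in the long arms, so the second library showed almost no difference between the arms. In the proximal long arms the shares were 62.7% with H3K9ac and 27.6% without it, and the short arms lay between both references. With 1 merged set and 2 replicates no test was made of these shares. Regions called in all 18 libraries were 39.0% of the short arms (344 regions), 47.3% of the long arms and 39.0% of the proximal long arms.

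Regions with all 3 marks were the stronger ones. In control their median Kbu tags were 303 and 295.5 in the short arms, against 329 and 314.5 in the long arms. In the 148 regions without H3K9ac the median was 144 and 123 in the short arms, against 172 and 144 in the long arms. No H3K9ac there means that not both control libraries had an H3K9ac peak called at this depth. One control library alone had such a peak in 21 of the 148, and in 132 of 659 in the long arms. In regions called in all 18 libraries, the balance of H3K9ac tags to Kbu and Kcr tags differed between the arms by −0.01 ± 0.03 on the log2 scale (SD over 6 condition and replicate pairs, higher in 3 of 6, exact permutation p = 0.625). The 2 chromosomes lay on opposite sides of the long arms. The short arm of chromosome 4 was above the long arms in 6 of 6 pairs, by 0.09 ± 0.02, and that of chromosome 10 below them in 6 of 6, by −0.08 ± 0.02 (SD over pairs, not tested).

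Most of these 148 regions had no H3K9ac peak in control or under stress. No H3K9ac peak was called in any of the 6 seedling libraries in 103 of them (69.6%), against 393 of 659 (59.6%) in the long arms and 64.6% in the proximal long arms. The rest include regions that already had a peak in 1 control library. Both submergence libraries had an H3K9ac peak in 21 of the 148, against 119 of 659 in the long arms, 25 of 178 in the proximal long arms and 1127 of 6302 over the genome. Both starvation libraries had one in 7 of the 148, against 76 of 659, 11 of 178 and 718 of 6302 in the same order. The starvation H3K9ac libraries held fewer tags than those of control and submergence. On chromosome 10 the region of this class with most Kbu was Chr10:1405281-1407482, with 173 and 206 H3K9ac tags under starvation, 302 and 398 under submergence and 0 and 0 in control. Its Kbu tags were 439 and 550 under starvation, 374 and 413 under submergence and 462 and 448 in control. On chromosome 4 the region of this class with most Kbu was Chr4:2034431-2039080, with 438 and 516 Kbu tags under starvation, 544 and 544 under submergence and 626 and 622 in control. Its H3K9ac tags were 0 and 0 under starvation, 60 and 64 under submergence and 0 and 0 in control.

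**Figure D3:**
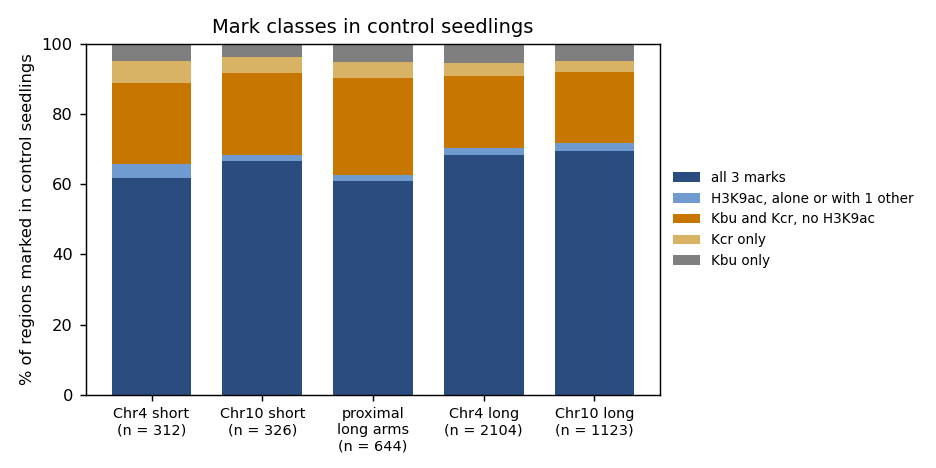
Share of marked regions in each class of marks in control seedlings, for the short arms, the proximal long arms and the long arms of chromosomes 4 and 10, with the number of marked regions under each bar. Regions with all 3 marks make up most of every bar, and the class with Kbu and Kcr but no H3K9ac takes 23.2% of the short-arm regions.

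Starvation and submergence were each set against control with edgeR's quasi-likelihood test on the tags of regions that all 6 libraries of a mark called, adjusted by Benjamini-Hochberg over all regions tested. In bulk leaf tissue fewer tags can stand for fewer cells with the mark or for less of it per cell, which cannot be told apart. The 2 treatments share their control libraries. TMM scaling sets the median change over all regions near 0, so a uniform change of a mark would not appear. Scaling H3K9ac to aligned reads moved the median of all regions by −0.57 under starvation and −0.15 under submergence, and the changes below are relative to that median.

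The share of short-arm regions with an H3K9ac change was near the background under starvation, at 38.8% against 39.2% of all tested regions, and below it under submergence, at 26.3% against 32.9%. Under starvation it rose in 83 of 358 tested regions (23.2%) and fell in 56 (15.6%), where the background over all tested regions was 18.3% higher and 20.9% lower. Long-arm regions rose in 14.9% and fell in 24.0%, and proximal long-arm regions rose in 21.6% and fell in 17.7%. The median change was 0.06 in the short arms, −0.05 in the long arms and 0.05 in the proximal long arms, on the log2 scale. The balance of the short arms was thus nearer to that of the proximal long arms, and the shares themselves were not tested against each other.

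Under submergence H3K9ac rose in 58 short-arm regions (16.2%) and fell in 36 (10.1%), against a background of 14.3% and 18.6%. In the long arms 13.1% rose and 23.1% fell, and in the proximal long arms 15.4% rose and 15.4% fell. The median change was 0.05 in the short arms, −0.01 in the long arms and 0.02 in the proximal long arms.

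These counts depended on scaling, on the tool and on single libraries. Scaled to aligned reads, 1 short-arm region was called higher and 56 lower under starvation, against 40 and 3924 of all 18611 regions. An offset for called peak length gave 200 higher and 5 lower in the short arms, against 9426 and 543 of all regions. Also scaled to aligned reads, a change of at least 1.5-fold in both replicate pairs was met by 109 short-arm regions under starvation. Of these, 1 was higher and 108 were lower, against 69 and 7273 of all regions. The median shift of −0.57 that comes with this scaling enters these counts too. DESeq2 called 27 for starvation (12 higher, 15 lower) and 11 for submergence (4 higher, 7 lower), against 558 higher and 1371 lower for starvation and 304 higher and 834 lower for submergence over all regions. The length offset gave 45 higher and 16 lower for submergence, against 1776 and 1427 of all regions. Without starvation replicate 1 or 2 the starvation count of 139 became 90 or 85, and without submergence replicate 2 the submergence count of 94 became 55.

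Kbu changed in 160 short-arm regions under starvation and in 39 under submergence, an order that turned (86 and 150) with an offset for called peak length. Under starvation it rose in 80 of 496 tested short-arm regions (16.1%) and fell in 80 (16.1%), against a background of 12.5% and 16.6%. In the long arms 10.7% rose and 18.1% fell, and in the proximal long arms 15.4% rose and 17.0% fell, near the shares of the short arms. Kbu rose under submergence in 25 (5.04%) and fell in 14 (2.82%), against a background of 4.92% and 5.22%. In the long arms 4.72% rose and 5.53% fell, and in the proximal long arms 6.52% rose and 5.14% fell. The starvation count of 160 became 54 without control replicate 1, 80 without starvation replicate 1 and 54 without starvation replicate 2. The submergence count of 39 became 9 without control replicate 2, 4 without submergence replicate 1 and 16 without submergence replicate 2. With MACS tags as library size Kbu was called higher in 94 and lower in 61 short-arm regions under starvation, against 4083 and 2504 of all regions. Under submergence it was called higher in 13 and lower in 39, against 552 and 3280 of all regions. The balance of directions thus depended on scaling, in the short arms as over all regions. DESeq2 called 4 higher and 36 lower under starvation, against 432 and 1701 of all 25338 regions.

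Kcr changed in few regions. It rose in 3 of 527 tested short-arm regions and fell in 10 under starvation, against a background of 1.41% and 2.27%, and rose in 9 and fell in 2 under submergence, against 1.41% and 0.931%. Without 1 of the 6 libraries these counts of 13 and 11 ranged from 0 to 7 and from 2 to 6. With MACS tags as library size starvation gave 7 higher and 6 lower, and submergence 3 higher and 4 lower. At an unadjusted p under 0.05 there were 124 of 527 short-arm regions under starvation and 123 under submergence, against 5802 and 5790 of all 25771 tested regions.

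**Figure D4:**
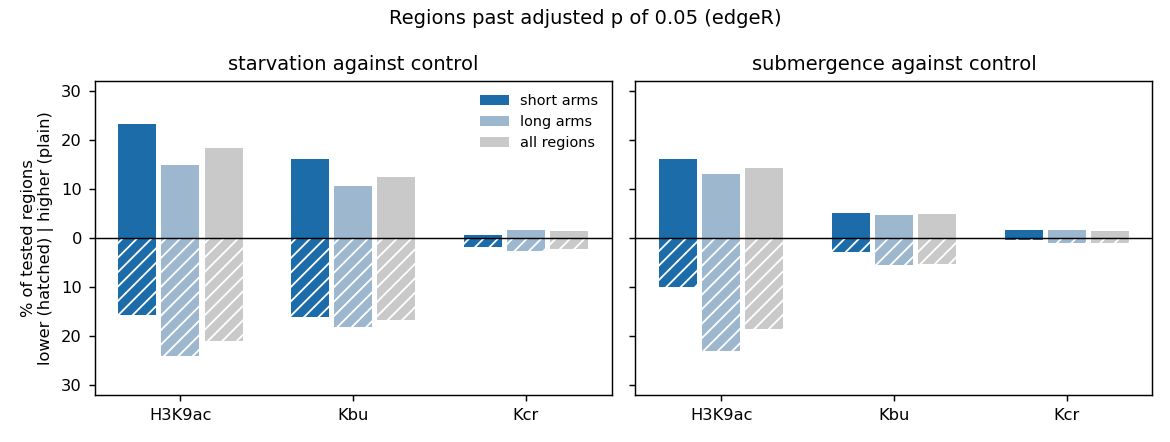
Share of tested regions that passed an adjusted p of 0.05 (edgeR) as higher (plain, up) or lower (hatched, down) under starvation and submergence against control, for the short arms, the long arms and all regions. H3K9ac of the short arms rose in 23.2% and fell in 15.6% under starvation, and Kcr changed in few regions of any group.

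The calls of H3K9ac and Kbu overlapped in part, in the short arms as over the whole genome. Under starvation 347 regions were tested for both marks, and 50 were called in both, which is 37.9% of the 132 called for H3K9ac and 51.0% of the 98 called for Kbu. Of these, 35 rose in both, 14 fell in both and 1 went opposite ways. Over the genome 2521 regions were called in both, which is 35.4% of those called for H3K9ac and 56.1% of those called for Kbu, and 67 of these went opposite ways.

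Among called regions, the largest H3K9ac rise under starvation was at Chr4:4690787-4693673, which had 26.5 and 22.4 tags per 1000000 tags used by MACS (CPM) under starvation, against 7.75 and 9.09 in control (log2 change 1.48, edgeR adjusted p = 4.8e-05). No leaf library had a peak there. Its called H3K9ac peaks were 2763 and 2174 bp long under starvation, against 1210 and 1260 bp in control. CPM sums all tags of the called peaks in a region, so it also follows their length. Chr10:5041878-5043182 had 11.9 and 10.3 CPM under starvation, against 4.44 and 4.67 in control (log2 change 1.24, edgeR adjusted p = 0.000379). Its Kbu rose too, by 0.56 on the log2 scale (edgeR adjusted p = 0.0255), and it also had no peak in leaves. The starvation and control values of both regions did not overlap.

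The largest fall under starvation was at Chr10:5541114-5545505, with 12.4 and 16.8 CPM of H3K9ac under starvation, against 40.8 and 41.3 in control (log2 change −1.51, edgeR adjusted p = 7.7e-05). Its Kbu change was −0.29 and did not pass (edgeR adjusted p = 0.278). The called H3K9ac peaks there were 1476 and 2032 bp long under starvation, against 4294 and 4296 bp in control, and the fall in tags came with shorter called peaks.

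A region of chromosome 4 fell in 5 of the 6 comparisons. Chr4:4648658-4651123 had 16.5 and 13.1 CPM of H3K9ac under starvation, 13.7 and 5.15 under submergence and 38.9 and 36.5 in control. The log2 changes in H3K9ac were −1.40 under starvation and −2.07 under submergence (edgeR adjusted p of 0.00321 and 0.000459). In Kbu they were −0.51 and −1.16 (edgeR adjusted p of 0.00205 and 0.000319). In Kcr the change under submergence was −1.14 (edgeR adjusted p = 0.00965), and that under starvation, −0.43, did not pass (edgeR adjusted p = 0.0975).

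Under submergence the largest H3K9ac rises were at Chr4:6952951-6955392, with 9.45 and 11.1 CPM, against 5.58 and 5.01 in control (log2 change 0.99), and at Chr10:4543198-4545342, with 22.6 and 20.5, against 11.3 and 11.1 in control (0.95). Both also rose under starvation, by 0.93 and 0.76. Called H3K9ac peaks of the first were 1221 and 1259 bp long under submergence, against 798 and 731 bp in control. Those of the second were 1949 and 1896 bp long, against 1265 and 1137 bp. After Chr4:4648658-4651123 the largest fall was at Chr10:3727635-3729679, with 4.84 and 7.98 CPM under submergence, against 13.6 and 14.3 in control (log2 change −1.06). In all 3 regions the submergence and control values did not overlap.

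The largest called changes of Kbu under starvation were falls. Chr10:1468323-1470372 had 6.24 and 4.92 CPM of Kbu under starvation, against 15.0 and 14.1 in control (log2 change −1.50, edgeR adjusted p = 0.000696). Chr10:1052892-1057241 had 12.9 and 12.2, against 28.7 and 31.5 in control (log2 change −1.38, edgeR adjusted p = 0.000478). Kcr fell in both as well, by 0.70 and 0.90 on the log2 scale (edgeR adjusted p of 0.0428 and 0.0270). Called Kbu peaks of the first were 1588 and 1107 bp long under starvation, against 1955 and 1975 bp in control. Those of the second were 2627 and 2257 bp long, against 4157 and 4155 bp. The largest rises among called regions, at Chr10:6097790-6099593 and Chr10:5041878-5043182, were 0.57 and 0.56.

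Under submergence Kbu rose most at Chr10:1954574-1957378, with 15.6 and 13.3 CPM, against 6.59 and 8.23 in control (log2 change 1.14, edgeR adjusted p = 0.00384), and at Chr4:7108089-7109471, by 0.78. Both belonged to the class with Kbu and Kcr but no H3K9ac. Called Kbu peaks of the first were 2513 and 2520 bp long under submergence, against 1313 and 1470 bp in control, so its rise came with longer called peaks. Those of the second were 1293 and 1272 bp long, against 1270 and 1123 bp. Besides Chr4:4648658-4651123, Kbu fell most at Chr10:2794510-2796877, by 0.97.

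The few Kcr calls under submergence included 2 rises on chromosome 4. Chr4:5310531-5312605 had 12.7 and 12.8 CPM under submergence, against 6.86 and 5.24 in control (log2 change 1.17, edgeR adjusted p = 0.0273), in the class with Kbu and Kcr but no H3K9ac. Chr4:4485548-4489222 had 20.1 and 17.2 CPM, against 10.8 and 9.82 in control (log2 change 0.96, edgeR adjusted p = 0.0306). Called Kcr peaks of the first were 1565 and 1730 bp long under submergence, against 1236 and 1111 bp in control. Those of the second were 3517 and 2357 bp long, against 1910 and 1731 bp. The falls were at Chr4:4648658-4651123 and Chr4:2562112-2563901, the second with 20.3 and 23.9 CPM, against 28.9 and 35.5 in control (log2 change −0.44, edgeR adjusted p = 0.0431). Among called regions, Kcr under starvation rose most at Chr4:6584390-6586041 (log2 change 0.60, edgeR adjusted p = 0.0497) and Chr10:2476731-2480190 (0.55, edgeR adjusted p = 0.0207), and fell most at Chr10:1757047-1758611 (−0.95, edgeR adjusted p = 0.0231).

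Peaks gained or lost outright cover regions that the test left out. A peak was gained when both treated libraries and neither control library had it, and lost in the reverse case. For H3K9ac the short arms gained 19 and lost 43 of 485 regions under starvation (3.92% and 8.87%), against a background of 3.4% and 6.51%. Under submergence they gained 15 and lost 16 of 489, against a background of 3.48% and 2.64%.

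Kbu and Kcr peaks of the short arms were lost under starvation and gained under submergence. Kbu gained 6 and lost 58 of 678 regions under starvation (0.885% and 8.56%), against a background of 1.45% and 5%. It gained 45 and lost 10 of 764 under submergence (5.89% and 1.31%), against 3.77% and 1.2%. Kcr gained 2 and lost 28 of 736 under starvation (0.272% and 3.80%), against 1.26% and 2.28%, and gained 43 and lost 5 of 817 under submergence (5.26% and 0.612%), against 3.5% and 0.85%.

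The proximal long arms lost 6.70% of Kbu and 3.89% of Kcr regions under starvation and gained 3.53% and 4.53% under submergence, and these differences from the short arms were not tested. With a peak score of at least 100 the Kcr counts became 3 gained and 13 lost under starvation and 21 gained and 5 lost under submergence.

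The effect of treatment on the arm ratio of peak density was tested with labels permuted within each mark (216 arrangements, exact two-sided test, 10 tests, chosen after the values were seen). This test takes the marks as independent of each other. The authors used the harvested leaves with all 3 antibodies, so the marks may share samples and the p-values may be too small. Within 1 mark, 2 against 2 libraries allow no permutation p below 0.333. Under starvation the density ratio was lower in all 3 marks, at 0.547 and 0.553 for H3K9ac, against 0.564 and 0.575 in control. For Kbu it was 0.550 and 0.549 under starvation, against 0.601 and 0.580 in control, and for Kcr it was 0.571 and 0.585, against 0.625 and 0.607. No starvation library reached the control values of its mark. The mean log2 change was −0.08 (exact permutation p = 0.00926, the smallest possible, adjusted p = 0.0309). MACS used 5631625 and 6480371 tags in the starvation H3K9ac libraries, against 10581295 and 11985500 in control. For Kbu and for Kcr the tag numbers of starvation and control libraries overlapped. Whether depth bears on these ratios was not tested.

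Arm ratios over the peaks of each library changed as well, and the set of peaks differed between starvation and control. The arm ratio of tags per kb changed by 0.11 and that of fold enrichment by 0.08 on the log2 scale, in all 3 marks (exact permutation test, adjusted p = 0.0309 each). Where all 6 libraries of a mark called the region, so that none was gained or lost, the arm ratio of tags changed by 0.02 under starvation (adjusted p = 0.251, exact permutation test).

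Submergence changed the density ratio in opposite directions, by −0.03 for H3K9ac, 0.04 for Kbu and 0.06 for Kcr (mean 0.02, adjusted p = 0.267, exact permutation test). For regions called in all 6 libraries of a mark, the arm ratio of tags rose by 0.04 under submergence (exact permutation test, adjusted p = 0.0463). Against the proximal long arms none of the 10 tests passed, and the lowest adjusted p was 0.0926, for the starvation density ratio, tags per kb and fold enrichment (exact permutation test).

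H3K9ac of the short arms changed over the day in a share of regions near the background. The 8 leaf libraries gave 525 short-arm regions, and 341 had a peak in all 8. Of these, 117 (34.3%) changed over the 4 time points (edgeR adjusted p under 0.05), against a background of 36.8%, 38.3% in the long arms and 34.0% in the proximal long arms. The median range between time points was 0.41 in the short arms and 0.44 in the long arms on the log2 scale.

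Of the 117 regions, 22 were highest at ZT0 (18.8%), 38 at ZT6 (32.5%), 39 at ZT12 (33.3%) and 18 at ZT18 (15.4%). Among all called regions of the genome the shares were 23.7%, 31.9%, 28.8% and 15.6% in the same order, and the difference was not tested. The count of 117 rested on single libraries in part. It became 66 without ZT12 replicate 1, 67 without ZT12 replicate 2 and 75 without ZT0 replicate 2, and 47 with the called length as offset. The replicate 2 library of ZT18 had the fewest tags of the leaf set.

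Chr10:1267702-1270559 was highest at ZT12. It had 15.7 and 19.4 CPM at ZT0, 30.8 and 27.3 at ZT6, 70.7 and 66.5 at ZT12 and 51.0 and 56.5 at ZT18 (range 1.87 on the log2 scale, edgeR adjusted p = 4.7e-05). Chr4:1123863-1127376 was also highest at ZT12, with 16.6 and 14.1 at ZT0, 16.6 and 15.4 at ZT6, 61.7 and 76.8 at ZT12 and 49.3 and 68.0 at ZT18 (range 2.06, edgeR adjusted p = 9.5e-05). In both, every ZT12 and ZT18 value exceeded every ZT0 and ZT6 value.

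Chr10:5592534-5596606 was highest at ZT6, with 45.7 and 60.1 CPM at ZT0, 85.9 and 109 at ZT6, 22.9 and 22.9 at ZT12 and 22.4 and 19.6 at ZT18 (range 2.18, edgeR adjusted p = 7.7e-05). Chr10:4993281-4995536 was also highest at ZT6, with 29.9 and 30.8 CPM, and lowest at ZT18, with 11.4 and 12.0 (range 1.35, edgeR adjusted p = 0.000109). At ZT6 both values of each region lay above all values of the other times.

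The short arm of chromosome 4 was sparser in H3K9ac in 30-day leaves than in seedlings. The ratio of short-arm to long-arm density was 0.419 ± 0.0127 in leaves (SD, n = 8) and 0.470 ± 0.0114 in seedlings (SD, n = 6). The highest leaf value was 0.430 and the lowest seedling value 0.461, so the sets did not overlap (exact permutation test over 3003 arrangements, p = 0.000333, the smallest possible, adjusted p = 0.00266 over 8 tests). Against the proximal long arm the ratio was 0.885 ± 0.0199 in leaves and 1.09 ± 0.0414 in seedlings (adjusted p = 0.00266, exact permutation test). On chromosome 10 it was 0.693 in leaves and 0.673 in seedlings against the long arm (adjusted p = 0.0866, exact permutation test). Against its proximal long arm it was 0.999 in leaves and 0.958 in seedlings (adjusted p = 0.0337, exact permutation test), higher in leaves and thus opposite to chromosome 4. Age, growth conditions and the set of libraries differ together between leaves and seedlings and cannot be told apart. Time of day differs in part as well, since all seedling libraries were of ZT12 and the leaf libraries of 4 time points. This comparison was chosen after the values were seen.

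Regions behind this difference were counted directly. Of the 205 short-arm regions of chromosome 4 with H3K9ac in both control libraries, 33 (16.1%) had no peak in any leaf library, and on chromosome 10 it was 12 of 223 (5.38%). In the long arms it was 62 of 2289 (2.71%), in the proximal long arms 2.72% and over the genome 3.88%. The regions without a leaf peak were weaker on chromosome 4, with median control H3K9ac tags of 109 and 132, against 187.5 and 218 in regions with a leaf peak. On chromosome 10 the medians were 140.5 and 160 without and 140 and 163 with a leaf peak.

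Regions called in every seedling library showed the same. Among regions called in all 18 seedling libraries, no leaf peak was found in 22 of 161 (13.7%) on the short arm of chromosome 4 and in 10 of 183 (5.46%) on that of chromosome 10. In the long arms it was 22 of 1950 (1.13%), in the proximal long arms 3 of 345 (0.870%) and over the genome 408 of 18167 (2.25%). Those on the short arm of chromosome 4 had mean control H3K9ac tags from 75.5 to 507.5, so not all were strong regions. The reverse case was counted too. Of leaf regions called in all 8 libraries, 11 of 157 (7.01%) on the short arm of chromosome 4 had no H3K9ac peak in any seedling library, against 2.05% in the long arms and 2.76% over the genome.

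The regions without a leaf peak lay close together on chromosome 4. Between 1 and 2 Mb, 16 of 44 regions with control H3K9ac had none, and 12 of the 38 regions called in all 18 seedling libraries. That was the highest count of any of the 379 windows of 1 Mb in the genome, where the median was 1 and 175 windows had 0. Windows of chromosome 6 came close, with 11 of 28 regions between 14 and 15 Mb, 11 of 35 between 15 and 16 Mb and 10 of 37 between 12 and 13 Mb. As a share, the first of these (39.3%) was above the 31.6% of chromosome 4. Within Chr4:1287617-1717154, a stretch of 430 kb picked out after the values were seen, 14 of 19 regions with control H3K9ac had no leaf peak, 3 had a peak in 1 to 3 leaf libraries and 2 had one in all 8, of which 1 overlapped an input peak. Of the 15 such regions between 1 Mb and that stretch, 14 had a peak in all 8 leaf libraries.

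The strongest of them was Chr4:1434102-1435725, with 308 and 350 H3K9ac tags under starvation, 404 and 483 under submergence and 490 and 525 in control, and no peak in any leaf library. Chr4:1294803-1296557 had 445 and 512 control H3K9ac tags, and Chr4:1287617-1289343 had 318 and 371. Both also carried Kbu, with 580 and 624 tags and with 578 and 538 tags in control. MACS used between 5914314 and 16232431 tags in a leaf library and between 5631625 and 11985500 in a seedling H3K9ac library, and 4 of the 8 leaf libraries were deeper than every seedling H3K9ac library. What bears on the absence of leaf peaks in this stretch was not tested.

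**Figure D5:**
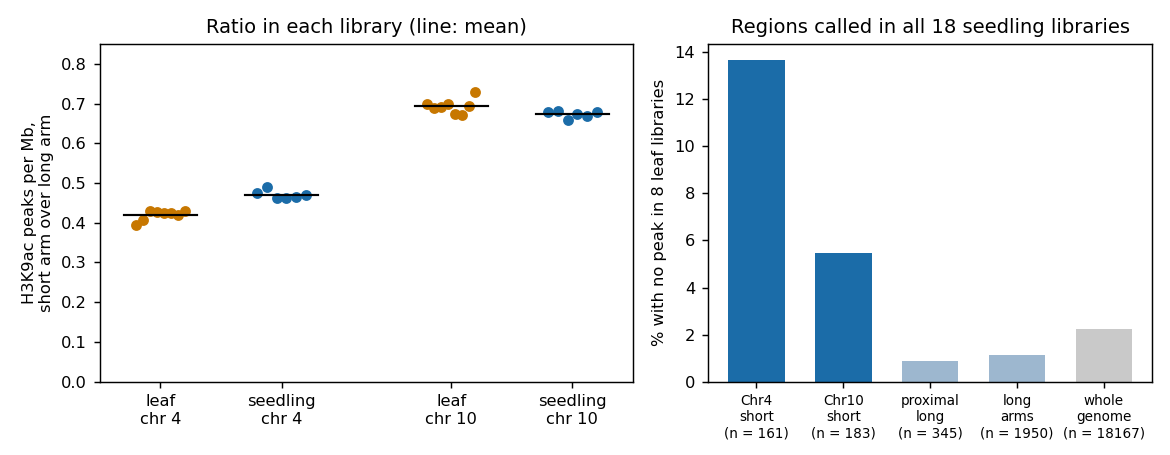
Left, ratio of H3K9ac peaks per Mb in the short arm to the long arm in each of 8 leaf and 6 seedling libraries, with the mean as a line, for chromosomes 4 and 10. Right, share of regions called in all 18 seedling libraries that had no peak in any leaf library, which was 13.7% on the short arm of chromosome 4 and 1.13% in the long arms.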

How the data were processed

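The authors mapped reads, after trimming (Trimmomatic), to the MSU7.0 assembly (Bowtie2 2.2.5), dropped duplicates (SAMtools 0.1.19) and ran MACS 1.4.2 on each library at a p cutoff of 1e-05, with no control library. Versions are those of the submitters' processing notes and list headers. Tag counts in the deposited lists are not normalized. The deposited score is a scaled negative log10 of p and was at least 50. The fold enrichment, as deposited by the authors, is taken relative to nearby tags of that library. Reads outside peaks have no value here, and RNA-seq samples of the series were not analysed here.

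Peaks were merged in Python 3.11.15 (pandas 2.3.3, NumPy 2.4.6), and the tags of each library added up per region. The last peak of any list closed a long arm. Arm ratios were tested by exact sign-flip or label permutation over libraries. For changes in tags edgeR 4.0.16 was used (R 4.3.3, limma 3.58.1; TMM on summed tags, all conditions of a mark in 1 fit), with DESeq2 1.42.0 as an alternative. In simulated data edgeR recovered 98.5% of 2-fold changes in the H3K9ac starvation comparison and 83.6% of 1.5-fold changes. Of 1.5-fold changes it recovered 73.1% in the Kbu starvation, 58.2% in the Kcr starvation and 52.2% in the diurnal comparison. The simulations changed 67 regions by each of these folds, among 18611 for H3K9ac, and left called peak length out. Far more regions were called in the real H3K9ac data, so these rates may not hold there.

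The arms, regions and lists were chosen with earlier results of these data known. Named regions are, per arm, the 3 with most control H3K9ac among those with a peak in all 6 control libraries, the widest, and the one with most Kbu without H3K9ac; per mark and treatment, the 2 highest and 2 lowest log2 changes among those called in 1 direction in both replicate pairs; and the 4 diurnal regions of smallest adjusted p. Regions without a leaf peak were named after their values were seen. A planned gene cluster was not placed, because gene positions of this build were not used here. Counting error of a region follows its tags, with a median control H3K9ac count of 172 in short-arm regions.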

Additional observations from a re-analysis of the deposited data

Results flagged for a closer look

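Contrasts of treated against control libraries (4) and of leaves against seedlings (1) differed between the short arms and the long arms of chromosomes 4 and 10. Under starvation the arm ratio of peak density changed by −0.082 on the log2 scale, that of tags per kb by 0.11 and that of fold enrichment by 0.076 (exact permutation of labels within marks, adjusted p = 0.0309 each). Under submergence the arm ratio of tags in regions called in all 6 libraries of a mark changed by 0.042 (adjusted p = 0.0463, exact permutation test). None of the 4 passed against the proximal long arms. These 4 tests take the marks as independent of each other, which was not shown. The arm ratio of H3K9ac density on chromosome 4 was lower in leaves than in seedlings by 0.16 on the log2 scale (difference −0.16, exact permutation test, adjusted p = 0.00266).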

How the results depend on the processing

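Of 210 alternative values, 126 kept their direction, side of the threshold or size, 66 moved, 7 reversed, 9 lost and 2 gained a passing test. What set these differences was not tested. Lower density, narrower peaks and higher fold enrichment of the short arms against the whole long arms held under every alternative but the proximal long arms, a reference chosen after seeing the data. Only reads in called peaks were available, so depth and the score cutoff limit weak regions, and the arm limits were set by position.

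Against the proximal long arms the region density ratio was 0.995. The ratios were, for H3K9ac, 1.02 in density, 1.003 in tags per kb, 0.968 in width and 1.07 in fold enrichment. For Kbu they were 0.972, 1.02, 0.990 and 1.02, and for Kcr 0.994, 1.002, 0.979 and 1.01, in the same order. The mean over peaks gave ratios of tags per kb of 1.13 for H3K9ac, which passed the test in the opposite direction (exact permutation, adjusted p = 0.0357), 1.03 for Kbu and 1.003 for Kcr. Peaks with a score of at least 100 gave 0.980 for H3K9ac and 0.946 for Kbu, and Kbu was 0.920 without peaks that overlap the input. The last 2 passed the test (exact permutation).

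The share of marked short-arm regions with H3K9ac was 70% at a score of at least 100, 61.0% with either control replicate, 66.5% in trimmed arms and 66.6% without input overlap, and 63.0% to 63.6% without 1 replicate. The share with Kbu and Kcr but no H3K9ac was 20.6%, 26.1%, 23.8% and 23.6% in the same order, and 23.7% to 23.9% without 1 replicate. At a score of at least 100, Kcr regions gained or lost were 16 under starvation and 26 under submergence.

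Short-arm regions called under starvation and submergence are given next in that order. With aligned reads as library size H3K9ac had 57 and 2 and Kcr submergence 6. With MACS tags as library size Kcr submergence had 7. With the called length as offset H3K9ac submergence had 61, Kbu 86 and 150, Kcr 20 and 1, and the diurnal test 47. Without a filter Kbu submergence had 8, Kcr 21 and 2, and the diurnal test 63. DESeq2 called 27 and 11 (H3K9ac), 40 and 3 (Kbu), 7 and 4 (Kcr) and 84 over the day. The 1.5-fold rule in both replicate pairs also used aligned reads as library size. It gave 109 (1 higher, 108 lower) and 15 with H3K9ac, 17 and 12 with Kbu and, for Kcr under submergence, 6.

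Without 1 library the counts ranged from 85 to 138 and from 55 to 87 (H3K9ac), from 54 to 143 and from 4 to 39 (Kbu), from 0 to 7 and from 2 to 6 (Kcr), and from 66 to 124 over the day.

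Deviations of libraries with the same replicate number correlated between −0.17 and 0.25 across regions, so the numbers were not shown to pair the samples. With the replicate block H3K9ac had 141 and 101 calls, Kbu 185 and 57, Kcr 5 and 3, and the diurnal test 115. Kcr starvation libraries had correlations of −0.14 with control and −0.17 with submergence libraries of the same number, and with their replicate numbers crossed, an alternative added after seeing the data, Kcr had 23 and 14 calls.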
